A study of Homo sapiens with 6 samples.

Results

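Retained introns of 301 to 1000 nt are introns of medium length that reads show both kept in and removed from polyadenylated RNA. They were taken from a table of retained introns built from RNA of HEK293A-TOA cells, which are derived from human embryonic kidney. An intron was a member when its 2 splice sites lay 301 to 1000 nt apart and when its junctions averaged 20 reads or more in a library, taken over all 6. No measured change entered this rule. It left 2538 introns in 1402 genes, of 12867 introns at that depth and 21158 in the whole table. All 2538 had different positions, but 1106 of them shared 1 splice site with another member. The siSFSWAP group was 3 cultures that received 40 nM of mixed siRNAs against SFSWAP, about 5 days before the end of growth, and the siNT group was 3 cultures with a non-target siRNA, whose dose the labels do not give apart. All 6 came from the same line, the knockdown was transient and partial, and the labels name no other treatment.

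An intron is removed by the spliceosome, which recognises the 5′ splice site, the branch point and the 3′ splice site. A transcript that keeps an intron is often held in the nucleus, where the intron is called detained, or is degraded once a ribosome meets a stop codon inside the intron. SFSWAP is a splicing factor with an RS domain, as SR proteins have, and SURP domains, which bind other splicing proteins. The study sequenced these cells to ask how lowering SFSWAP alters splicing across genes, and it paid particular attention to decoy exons, which are exons lying inside a retained intron. The value used here is inclusion, a percentage that sets reads of the kept intron against reads of its removal as a whole. It was computed from reads over the 2 exon-intron borders (inclusion reads) and reads over the junction that joins the flanking exons (skipping reads), each divided by its effective length. Transcripts spliced to a site inside the intron give no skipping reads. Inclusion of an intron that holds an exon is therefore not the share of transcripts that keep all of it.

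The splice sites of 8 introns that carry the results below are shown first, read from GRCh38 on the strand of the gene, with 3 exonic then 12 intronic bases at the 5′ site, and 27 intronic then 3 exonic bases at the 3′ site. Capitals mark the 2 intronic bases at each border. The SNHG1, PSMD11, GAS5 and BAX introns were called lower in siSFSWAP, and the HNRNPH1, NEK9 and TTC14 introns were called higher.
SNHG1 685 nt, 5′ site: acaGTaagttgtttt
SNHG1 685 nt, 3′ site: ttcacccacagctttgtttttctctAGgta
SNHG1 581 nt, 5′ site: cagGTaggtgtacat
SNHG1 581 nt, 3′ site: aaataactaatttgctttcctttccAGgta
PSMD11 769 nt, 5′ site: cagGTgagaaccctc
PSMD11 769 nt, 3′ site: ccctttaatcatgtgctttgattttAGgcc
GAS5 370 nt, 5′ site: cagGTtagtttaaac
GAS5 370 nt, 3′ site: tgattaatatgttggcttcgctttcAGggt
BAX 617 nt, 5′ site: tggGTgagactcctc
BAX 617 nt, 3′ site: tgaagcgactgatgtccctgtctccAGgac
HNRNPH1 802 nt, 5′ site: tgtGTaaatatcact
HNRNPH1 802 nt, 3′ site: ggttctaatgttttcttaacttaacAGcaa
NEK9 505 nt, 5′ site: atgGTaggggtagcc
NEK9 505 nt, 3′ site: tgattttcattcttatgtgtgtttcAGgac
TTC14 819 nt, 5′ site: gagGTaaactataat
TTC14 819 nt, 3′ site: atatgacaaatgaactgttttttttAGgct
All 8 begin with GT and end with AG, as did 2438 of the 2538 members (96.1%). Another 70 members began with GC and ended with AG, and 7 ran from AT to AC.

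The knocked down gene was checked first. SFSWAP had 34.7, 34.6 and 21.3 CPM of spliced junction reads in the siSFSWAP libraries and 79.7, 86.5 and 80.2 CPM in the siNT libraries, a log2 change of −1.46 (SE 0.16, limma adjusted p 0.000353). The member introns held between 575335 and 934282 junction reads in siSFSWAP libraries and between 587426 and 1571092 in siNT libraries, of which siNT library a had the most. The median tested member had between 64 and 98 reads in siSFSWAP libraries and between 65 and 162 in siNT libraries. Keratin genes KRT8 and KRT18, which the line is known to express, had 82.8 to 117 and 38.7 to 62.6 CPM, and COL1A1, a fibroblast marker, had at most 0.514 CPM. VIM had 221 to 373 CPM. The other planned markers, PAX2, NEFM and NEFL of the line among them, gave no value, so these few genes do not settle the cell type.

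Of the 2538 members, 1781 in 1184 genes (70.2%) could be tested. Another 741 had fewer than 5 skipping reads over the 6 libraries, and 16 had fewer than 5 inclusion reads, so that no change could be measured in them. Of these 757 untested introns, 608 had a junction that the GENCODE annotation does not hold as an intron, and of the 1781 tested introns 243 were of that kind. Inclusion had a wide spread: by the mean of both groups, 487 tested introns were under 5%, 514 were between 5% and 20%, 387 between 20% and 80%, and 393 above 80%.

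Few of the medium introns were called as changed. An intron was called when its adjusted p was at most 0.05 and its mean inclusion changed by at least 20 percentage points. Of the 1781 tested members, 21 in 20 genes were called lower in siSFSWAP (1.18%) and 7 in 7 genes were called higher (0.393%). Over all 10155 tested introns the same rule called 1.61% lower and 0.148% higher. Medium introns thus made up 12.9% of all lower calls and 46.7% of all 15 higher calls, while they were 1781 of the 10155 introns tested. The share called higher was not largest in them: in 832 tested introns over 1000 nt 0.481% were called lower and 0.481% higher. It was 2.04% lower and 0.0379% higher in introns of up to 100 nt, and 1.71% and 0.0612% in those of 101 to 300 nt. By the adjusted p alone 31 members were lower and 13 were higher. Introns of the lower calls had a median of 35.0% in siSFSWAP and 75.6% in siNT, and those of the higher calls 58.7% in siSFSWAP and 24.2% in siNT.

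**Figure D1:**
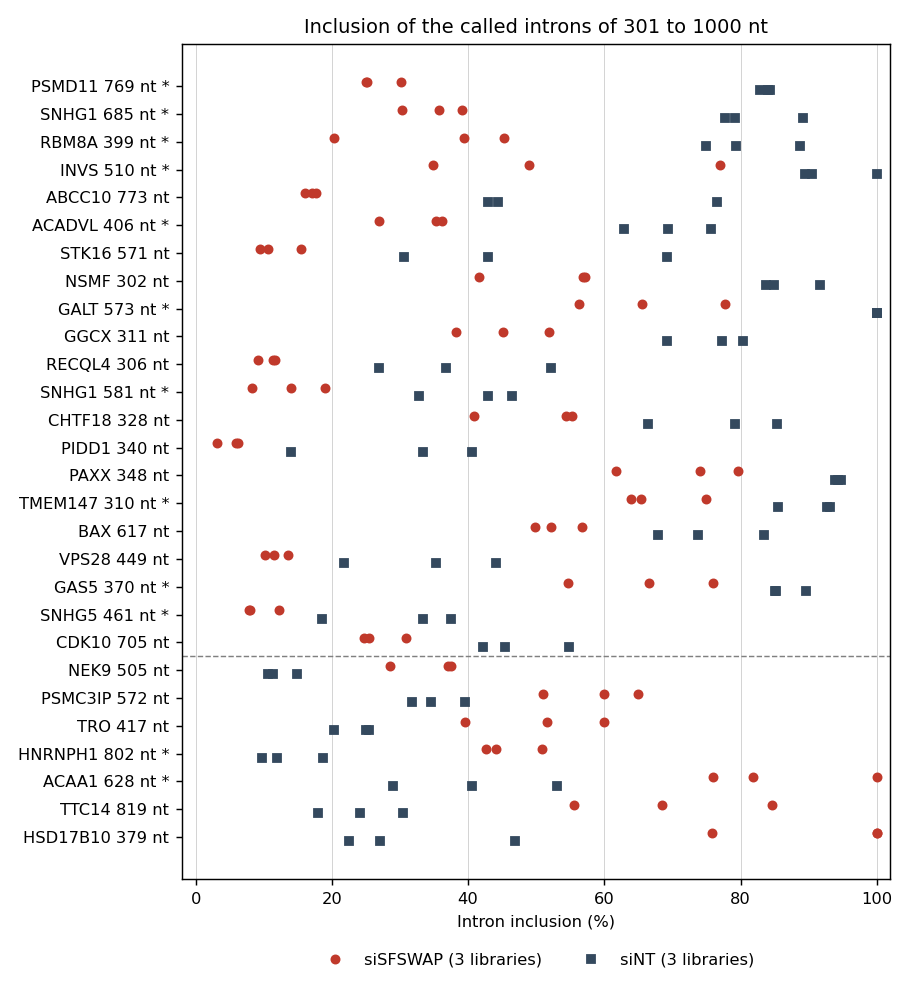
Inclusion in percent of the 28 called introns of 301 to 1000 nt, 1 row per intron with its gene and length, sorted by change. Circles are the 3 siSFSWAP libraries, squares the 3 siNT libraries, an asterisk marks an intron that holds an exon, and the dashed line parts the 21 introns called lower (above) from the 7 called higher. In no row do the libraries of both groups overlap.

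The counts moved with the libraries used. Without siSFSWAP library a, b or c the calls were 5, 10 and 3 lower and 1, 4 and 2 higher. Without siNT library b or c they were 4 and 14 lower and 1 and 7 higher, and without siNT library a they were 48 lower and 17 higher. Called in the full data and without each library in turn were 4 introns: both SNHG1 introns, PSMD11 and HNRNPH1. limma on log2 odds, an alternative that gives every library the same weight whatever its depth, called 0 members in either direction, with 245 at an unadjusted p under 0.05. Its adjusted p was 0.0623 for PSMD11, 0.104 and 0.135 for the SNHG1 introns of 685 and 581 nt and 0.125 for HNRNPH1. In all 28 called introns the libraries of the groups did not overlap, which was also the case in 21.3% of all tested members and in 21.3% of all tested introns.

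SNHG1, a long noncoding RNA gene whose introns carry snoRNAs, had 2 introns called lower that stayed called whichever library was left out. Its 685 nt intron (ENSG00000255717.8, chr11:62853834-62854518, minus strand, GRCh38, intron 5 of 9) holds SNORD22, a C/D box snoRNA. Inclusion there was 39.1%, 35.8% and 30.2% in siSFSWAP libraries, against 89.1%, 79.1% and 77.8% in siNT libraries. The skipping reads were 98, 70 and 143 in siSFSWAP and 13, 12 and 13 in siNT, while the inclusion reads were 126, 78 and 124 in siSFSWAP and 213, 91 and 91 in siNT. The groups were far apart, and skipping reads were more frequent in siSFSWAP. Over all members, siSFSWAP libraries a, b and c held 934282, 575335 and 658456 reads, and siNT libraries a, b and c held 1571092, 656266 and 587426. Spliced reads of SNHG1 as a gene were also higher in siSFSWAP (mean 564 CPM, against 313 CPM in siNT). The change was −47.0 points (quasi-binomial F test with limma, adjusted p 4.81e-05).

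The SNHG1 581 nt intron (chr11:62854552-62855132, intron 3 of 8) holds SNORD27 and SNORD28. Its inclusion was 14.0%, 19.0% and 8.35% in siSFSWAP libraries and 46.4%, 42.9% and 32.8% in siNT libraries, without overlap. The change was −26.9 points (adjusted p 0.00202). SNHG1 had 10 tested members, more than any other gene. Of these 8 were lower in siSFSWAP by the mean, 2 of them by call, and the changes ran from −47.0 to 9.21 points.

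Both SNHG1 introns also contain exons of their own, and the same held for many of the called introns. A skipped exon event inside a member whose skipping junction is the member's junction shares its skipping reads with the intron, so both values read 1 set of reads for the form in which the whole stretch is removed. Such an exon was found in 337 members, 267 of them tested (15% of tested members). Of the 28 called introns 12 held one (42.9%): 10 of the 21 called lower and 2 of the 7 called higher. Among the 267 tested introns with an exon inside, 3.75% were called lower and 0.749% higher. Among the 1514 without one, 0.727% were called lower and 0.33% higher, against 1.61% and 0.148% over all tested introns. Median siNT inclusion was 33.5% with an exon and 13.0% without. At a mean inclusion of 20% to 80%, 10.3% of 78 introns with an exon and 2.91% of 309 without were called lower. The median changes there had the other order, −1.39 points with an exon (51.3% lower by the mean) and −2.90 points without (60.8%).

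Exons that passed the adjusted p had the direction of the intron around them. For 211 tested members the exon event with most reads was itself tested, and in 25 of these the exon passed the adjusted p. All 9 introns around an exon that was lower were lower by the mean, and all 16 around an exon that was higher were higher by the mean. Among the 202 introns whose most read exon was not called, 155 had the direction of the exon. Since both share the skipping reads, the direction in these pairs is not independent. Counting every event, 430 exon events inside tested members were tested, of which 16 in 6 genes were called lower (3.72%) and 15 in 10 genes higher (3.49%). Over all 48100 tested exon events 0.655% were called lower and 1.44% higher. Events of this kind inside 1 intron share its skipping reads, and many of the lower calls are forms within the SNHG1 introns. The counts and shares inside members are thus not of independent exons. Of the 211 most read events, 1 per intron, 3 were called lower and 6 higher.

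**Figure D2:**
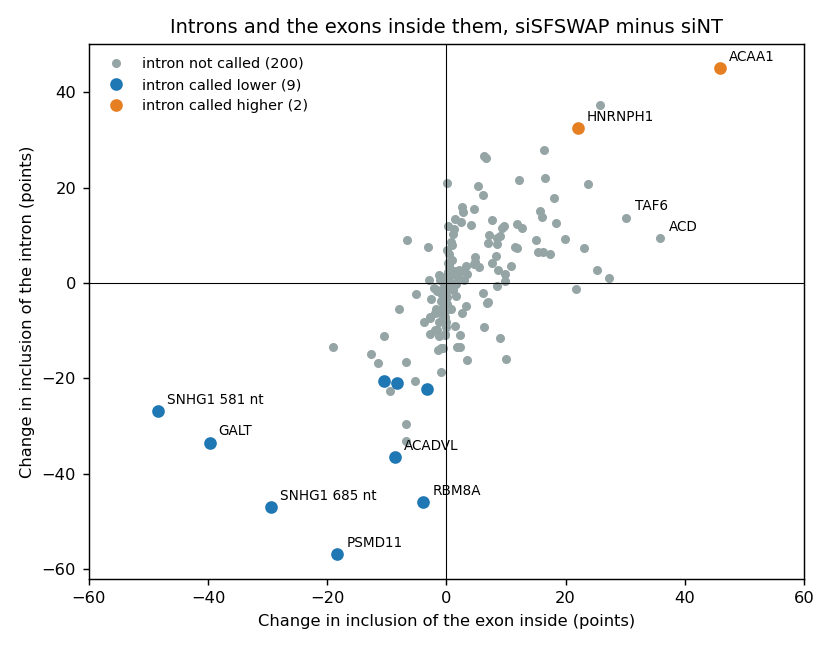
Change in inclusion of a member intron (vertical, in points) against the change of the most read exon event inside it (horizontal, in points), siSFSWAP minus siNT, 1 point per intron for 211 introns. Blue points are introns called lower, orange points introns called higher and grey points introns not called. SNHG1 and GALT lie at the lower left and ACAA1 and HNRNPH1 at the upper right, and both axes use the same skipping reads.

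In the SNHG1 685 nt intron the most read exon is 47 nt long, and its inclusion was 62.6% in siSFSWAP and 91.9% in siNT (adjusted p 2.26e-07). The introns on either side of that exon, of 184 and 454 nt, had inclusion of 24% and 21.7% in siSFSWAP and 28.7% and 22.8% in siNT, changes of −4.73 and −1.13 points with adjusted p of 0.298 and 0.793. In the 581 nt intron the exon of 51 nt had inclusion of 29.8% in siSFSWAP and 78.1% in siNT (adjusted p 6.35e-09), and the introns beside it, of 336 and 194 nt, differed by 8.27 and 7.73 points (adjusted p 0.284 and 0.404). The large change was thus seen for the whole stretch and for the exon, and the short introns beside the exon differed by under 10 points without passing the test.

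PSMD11, which encodes a subunit of the proteasome lid, had the largest fall. Its 769 nt stretch (ENSG00000108671.11, chr17:32479377-32480145, plus strand) lies between 2 annotated splice sites that no annotated transcript joins. Inclusion was 25.2%, 30.1% and 25% in siSFSWAP libraries, against 84.3%, 84% and 82.9% in siNT libraries. Skipping reads were 40, 29 and 63 in siSFSWAP and 4, 2 and 3 in siNT, and the change was −56.9 points (adjusted p 0.000491). An exon of 36 nt inside it had inclusion of 80.7% in siSFSWAP and 99.1% in siNT (adjusted p 1.40e-06), a change below 20 points.

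RBM8A encodes a core protein of the exon junction complex, which marks spliced junctions. Its 399 nt stretch (chr1:145926619-145927017, minus strand), also unannotated as a single intron, had inclusion of 45.2%, 39.5% and 20.4% in siSFSWAP libraries and 88.7%, 75% and 79.3% in siNT libraries. The 78 nt exon inside it was included at 95.8% in siSFSWAP and 99.7% in siNT, and the annotated intron of 190 nt beside it was at 1.54% in siSFSWAP and 0.80% in siNT. An exon of another gene lies on the opposite strand within 50 nt of 1 end of this stretch, and no source used here says whether the libraries keep strand, so reads of both genes cannot be told apart there. The RBM8A call was lost in 1 of the 6 fits that left out a library (largest adjusted p 0.0706).

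GAS5 and SNHG5 are noncoding snoRNA host genes like SNHG1. The GAS5 370 nt intron (chr1:173864305-173864674, intron 9 of 10) had inclusion of 75.9%, 66.5% and 54.7% in siSFSWAP libraries and 89.7%, 85% and 85.2% in siNT libraries, a change of −20.9 points (adjusted p 0.0105). The SNHG5 461 nt intron (chr6:85677493-85677953, intron 2 of 5), which holds SNORD50B, had 7.87%, 12.2% and 8% in siSFSWAP libraries and 33.3%, 37.5% and 18.6% in siNT libraries, a change of −20.5 points (adjusted p 0.0115). In both genes the groups did not overlap but lay closer than in SNHG1. The most read exon of the GAS5 intron, of 23 nt, passed the adjusted p but not the size, at 88.3% in siSFSWAP and 96.6% in siNT. A 19 nt exon within the GAS5 intron was included at 51.7% in siSFSWAP and 79.1% in siNT, and a 74 nt exon within the SNHG5 intron at 71.2% in siSFSWAP and 93.4% in siNT, and both were called lower. The most read exon of the SNHG5 intron, of 81 nt, passed the adjusted p but not the size, at 87.0% in siSFSWAP and 97.4% in siNT, and the 302 nt intron beside it, itself a member, was at 1.56% in siSFSWAP and 1.23% in siNT (adjusted p 0.775).

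GALT, ACADVL and TMEM147 were the remaining genes of lower calls with a tested exon inside. GALT, a galactose-converting transferase, had its 573 nt intron at 100% in the siNT libraries, with 0 skipping reads in each. That intron was at 65.5%, 77.8% and 56.2% in siSFSWAP libraries, with 5, 3 and 7 skipping reads. The 214 nt exon inside had inclusion of 60.3% in siSFSWAP and 100% in siNT (adjusted p 0.00896), at a mean of 21.8 reads per library. The introns of 233 and 126 nt beside that exon were at 22.0% and 40.3% in siSFSWAP and 15.4% and 56.6% in siNT. The value of 100% thus does not mean that every siNT transcript kept the whole stretch. ACADVL, a mitochondrial fatty acid dehydrogenase, had a 406 nt intron at 35.3%, 36.2% and 26.9% in siSFSWAP and 75.6%, 69.4% and 63% in siNT (adjusted p 0.00728), and its 66 nt exon did not pass the test (60.6% in siSFSWAP, 69.2% in siNT, adjusted p 0.313). TMEM147, a protein of the endoplasmic reticulum membrane, had a 310 nt stretch at 68.1% ± 6.0 in siSFSWAP and 90.5% ± 4.28 in siNT (SD, n = 3, quasi-binomial F test, adjusted p 0.0461). In INVS, a gene of the primary cilium, the exon inside was not among those tested.

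HNRNPH1 was the clearest of the introns called higher. The gene encodes an RNA-binding protein that recognises runs of guanine and regulates splicing. Its 802 nt intron (ENSG00000169045.17, chr5:179616219-179617020, minus strand, intron 9 of 11) had inclusion of 42.7%, 44.2% and 50.9% in siSFSWAP libraries and 18.8%, 11.9% and 9.69% in siNT libraries. The skipping reads were 100, 67 and 53 in siSFSWAP and 379, 277 and 261 in siNT. The change was 32.5 points (adjusted p 0.000182), and it stayed called whichever library was left out. An exon of 54 nt inside was included at 84.2% in siSFSWAP and 62.2% in siNT (adjusted p 1.33e-05), and the 650 nt intron beside it was at 7.72% in siSFSWAP and 4.52% in siNT, a change of 3.19 points that passed the adjusted p (0.0216) but not the size.

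ACAA1, a peroxisomal thiolase, was the other intron called higher with an exon inside. Its 628 nt intron had inclusion of 81.8%, 76% and 100% in siSFSWAP libraries and 53.1%, 28.9% and 40.6% in siNT libraries, from a mean of 34.5 reads (adjusted p 0.0352). The 180 nt exon in it was included at 93.1% in siSFSWAP and 47.3% in siNT (adjusted p 0.00505). The introns of 280 and 168 nt beside that exon were lower by the mean, with changes of −14.0 and −25.3 points that did not pass the test. Exons called higher also lay in introns that were not called, among them a 57 nt exon of the transcription factor subunit gene TAF6 (91.3% in siSFSWAP, 61.1% in siNT), a 6 nt exon of the clathrin adaptor gene AP2M1 (55.9% in siSFSWAP, 30.5% in siNT), and a 68 nt exon of IMPDH2, an enzyme of guanine nucleotide synthesis (68.4% in siSFSWAP, 41.2% in siNT). The introns around these 3 differed by 13.7, 2.72 and 9.31 points, with adjusted p of 0.212, 0.167 and 0.0559.

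Among called introns with no such exon, BAX had by far the most reads. BAX is a pro-apoptotic protein of the mitochondrial outer membrane. Its 617 nt intron (ENSG00000087088.21, chr19:48960915-48961531, plus strand) is the last of 5 in the transcript used and is retained in an annotated protein-coding isoform. Inclusion was 52.2%, 56.7% and 49.8% in siSFSWAP libraries and 67.8%, 83.4% and 73.7% in siNT libraries, from a mean of 621 reads per library. The change was −22.1 points (adjusted p 0.00504), and it stayed called in 3 of the 6 fits that left out a library. An intron of 568 nt from the same 5′ site to another 3′ site differed by −7.16 points (adjusted p 0.481).

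VPS28, a subunit of the ESCRT-I complex that sorts membrane proteins to lysosomes, had a 449 nt intron (intron 7 of 9) at 10.1%, 13.6% and 11.6% in siSFSWAP libraries and 21.8%, 35.3% and 44.2% in siNT libraries (adjusted p 0.00728). RECQL4, a DNA helicase, had a 306 nt intron (intron 6 of 20) at 11.4%, 11.6% and 9.09% in siSFSWAP libraries and 26.9%, 36.8% and 52.2% in siNT libraries (adjusted p 0.00841). PIDD1, a p53-induced protein with a death domain, had a 340 nt intron (intron 7 of 15) at 3.12%, 5.98% and 6.25% in siSFSWAP libraries and 14.1%, 40.5% and 33.3% in siNT libraries (adjusted p 0.0206). In all 3 the siSFSWAP libraries lay close together, the siNT libraries were spread, and siNT library a was the lowest of its group. The call of each held in 2 of the 6 fits without a library.

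CHTF18, a subunit of a clamp loader at the replication fork, had a 328 nt intron with the highest GC content of the called introns (78.7%). It stood at 40.9%, 55.2% and 54.3% in siSFSWAP libraries and 66.4%, 79.1% and 85.4% in siNT libraries (adjusted p 0.0278). GGCX, the enzyme of vitamin K-dependent carboxylation, had a 311 nt intron at 51.8%, 45.1% and 38.2% in siSFSWAP libraries and 77.2%, 69.2% and 80.4% in siNT libraries (adjusted p 0.0289). CDK10, a cyclin-dependent kinase, had a 705 nt intron (intron 8 of 12) at 30.9%, 25.5% and 24.8% in siSFSWAP libraries and 54.8%, 42.2% and 45.5% in siNT libraries (adjusted p 0.0443). The groups did not overlap in these 3 genes, yet CDK10 was called in none and CHTF18 in 1 of the fits without a library. PAXX, a factor of DNA end joining, had a 348 nt stretch from an unannotated 5′ site at 74.1%, 79.7% and 61.7% in siSFSWAP libraries and 93.9%, 94.4% and 94.7% in siNT libraries (adjusted p 0.00728).

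The other introns called lower rested on fewer reads. STK16, a membrane-bound kinase, had a 571 nt intron with a mean of 32.5 reads and inclusion of 11.9% ± 3.21 in siSFSWAP and 47.5% ± 19.8 in siNT. ABCC10, a drug transporter, had a 773 nt intron with a mean of 20 reads at 16.9% ± 0.766 in siSFSWAP and 54.6% ± 19 in siNT, and NSMF, a nuclear messenger of synaptic signals, a 302 nt stretch at 51.9% ± 8.86 in siSFSWAP and 86.8% ± 4.26 in siNT (SD, n = 3 each). INVS had a 510 nt intron with a mean of 30.3 reads at 53.5% ± 21.4 in siSFSWAP and 93.3% ± 5.81 in siNT. Of all called coding introns INVS alone had no in-frame stop codon, and an annotated protein-coding isoform retains it.

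Of the introns called higher, 5 held no such exon. HSD17B10, a mitochondrial dehydrogenase that is also part of RNase P, showed the largest rise: its 379 nt stretch was at 75.8%, 100% and 100% in siSFSWAP libraries and 46.9%, 27.1% and 22.5% in siNT libraries. Skipping reads there were 4, 0 and 0 in siSFSWAP and 34, 43 and 43 in siNT, and the change was 59.7 points (adjusted p 0.0129). A nested intron of 203 nt with the same 3′ site had inclusion of 8.05% in siSFSWAP and 7.81% in siNT. TTC14, a tetratricopeptide repeat protein, had an 819 nt intron at 84.6%, 68.4% and 55.6% in siSFSWAP libraries and 30.5%, 17.9% and 24.1% in siNT libraries (adjusted p 0.0115), with an exon of another gene on the opposite strand within 50 nt of 1 end.

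NEK9, a mitotic kinase, had a 505 nt intron (intron 12 of 21) at 37.5%, 28.6% and 37% in siSFSWAP libraries and 11.4%, 14.9% and 10.6% in siNT libraries (adjusted p 0.0102). PSMC3IP, a partner of the meiotic and somatic recombinases, had a 572 nt intron in its 5′ UTR at 65%, 51% and 60% in siSFSWAP libraries and 39.6%, 34.5% and 31.8% in siNT libraries (adjusted p 0.0138). A nested PSMC3IP intron of 475 nt that shares its 3′ site differed by −15.6 points without passing the test (adjusted p 0.122). TRO, a cell adhesion protein known from the trophoblast, had a 417 nt intron at 51.5%, 39.6% and 60% in siSFSWAP libraries and 20.4%, 25% and 25.5% in siNT libraries (adjusted p 0.0146). None of the 3 overlapped between groups, and each call held in 3 of the 6 fits without a library.

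Where an intron was called, the spliced reads of its gene were compared as well. These are junction reads summed over the gene's exon events, in CPM, and they can include reads over the called intron's own junction, so they are no independent measure of it. Of 20 genes with an intron called lower, 11 had more spliced reads in siSFSWAP by limma's adjusted p and 0 had fewer. Of 7 genes with an intron called higher, 3 had fewer and 0 had more. Over all 10780 genes 30.3% passed, 1587 with more and 1683 with fewer. VPS28 had 173, 190 and 180 CPM in siSFSWAP and 106, 93 and 69.4 CPM in siNT, a log2 change of 1.03 (adjusted p 0.000503). SNHG1 had 458, 517 and 716 CPM in siSFSWAP and 262, 330 and 349 CPM in siNT, a log2 change of 0.83 (adjusted p 0.00248). PIDD1, INVS and GALT changed by 1.05, 0.95 and 0.88 on the log2 scale (adjusted p 0.00163, 0.00364 and 0.00409). In the other direction TTC14 had 4.71, 2.75 and 5.09 CPM in siSFSWAP and 8.53, 9.74 and 6.30 CPM in siNT (log2 change −0.91, adjusted p 0.0109), and PSMC3IP and HNRNPH1 changed by −0.60 and −0.29 (adjusted p 0.0418 and 0.0321). BAX had 145 ± 5.02 CPM in siSFSWAP and 141 ± 7.73 CPM in siNT (SD, n = 3, limma adjusted p 0.749).

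Across tested members the change was centred near 0. The median inclusion was 12.3%, 14.3% and 13.2% in the siSFSWAP libraries and 12%, 15% and 15.8% in the siNT libraries, so the groups overlapped. The median change was −0.096 points, with 52.4% of introns lower, against −0.515 points and 61.2% over all tested introns. It was 0.074 points in introns under 5% inclusion, and between −2.97 and −2.11 points in the bins of 20% to 40%, 40% to 60% and 60% to 80%. All 7 higher calls and 17 of the 21 lower calls lay between 20% and 80%.

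**Figure D3:**
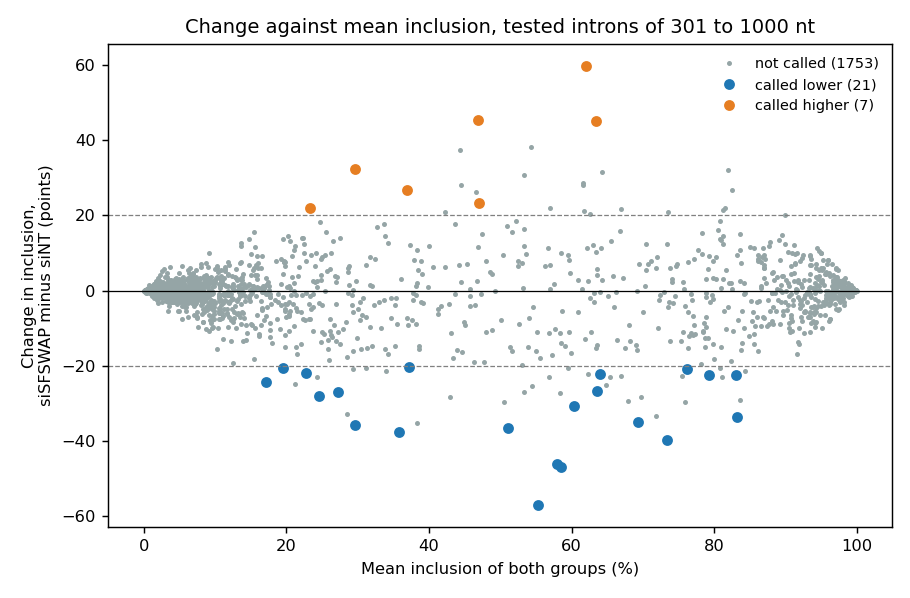
Change in inclusion (vertical, siSFSWAP minus siNT, in points) against the mean inclusion of both groups (horizontal, in percent), 1 point per tested intron of 301 to 1000 nt. Grey points are introns not called, blue the 21 called lower and orange the 7 called higher, and dashed lines mark 20 points. Most introns lie near 0% or 100% inclusion, where changes are small.

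By length class the medium introns stood between their neighbours. Among introns with mean inclusion of 20% to 80%, the 387 medium introns had a median inclusion of 41.5%, 44% and 43.8% in siSFSWAP libraries and 45.7%, 47.5% and 46.7% in siNT libraries, groups that did not overlap but lay close. The median change was −2.45 points, and 58.9% were lower. It was −11.1 points in the 393 introns of up to 100 nt and −10.4 points in the 727 introns of 101 to 300 nt, of which 80.7% and 77.4% were lower. In the 151 introns over 1000 nt it was 1.29 points, with 43.7% lower. In introns of up to 100 nt siNT library a had a median of 29.8%, against 43.4% and 48.4% in siNT libraries b and c, whereas the 3 siNT libraries lay close together in medium introns, as given above. Without siNT library a the median change of the medium introns was −3.08 points. Within the medium class the median was −3.54 points at 301 to 400 nt, −2.48 at 401 to 500 nt, −2.15 at 501 to 700 nt and −1.59 at 701 to 1000 nt. Spearman's rho between length and change was 0.029 over the 387 introns, which share the 6 libraries.

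**Figure D4:**
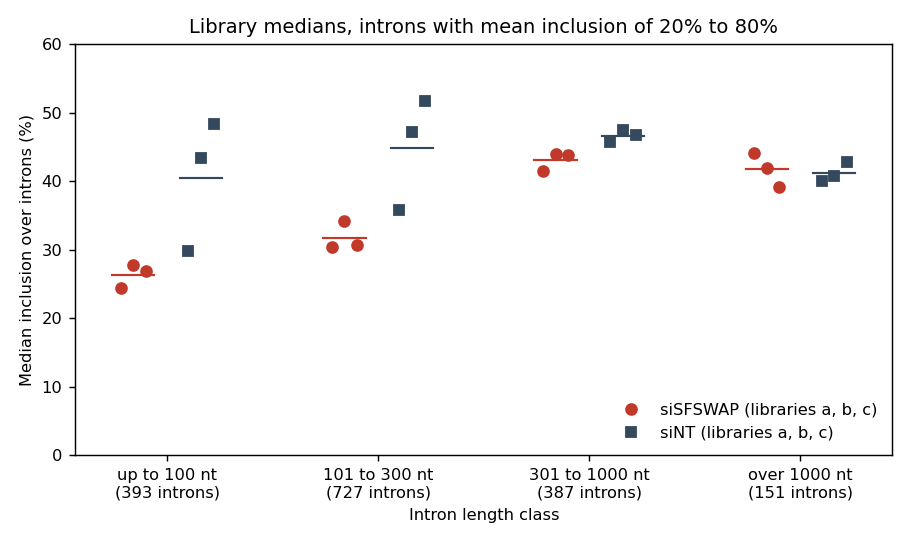
Median inclusion (vertical, in percent) in each library over introns with mean inclusion of 20% to 80%, by length class (horizontal, with the number of introns). Circles are siSFSWAP libraries a, b and c, squares siNT libraries a, b and c, and lines the mean of the 3. The groups lie furthest apart in the 2 short classes, close together in introns of 301 to 1000 nt and overlap above 1000 nt.

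Median changes of medium introns also differed by GC content. Among the same 387 introns the median change was 0.386 points in 65 introns of up to 40% GC and 1.99 points in 83 introns of 40% to 50%. It was −3.77 points in 123 introns of 50% to 60% and −6.60 points in 116 introns over 60%, of which 73.3% were lower. The median inclusion of the GC-richest introns was 45.5% in siSFSWAP and 48.5% in siNT. Spearman's rho between GC content and change was −0.225 and Pearson's r −0.201 over the 387 introns, given as a description. The difference between siNT library a and the mean of siNT libraries b and c had a rho of −0.244 with GC content, so the same feature also separated libraries within the siNT group, and its part in the difference between groups was not tested. Without siNT library a the rho was −0.251. Introns of at most 500 nt differed by GC content as those over 500 nt did: their median changes were −5.28 and 2.42 points above and up to 50% GC, against −4.02 and −0.450 points for the longer ones.

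**Figure D5:**
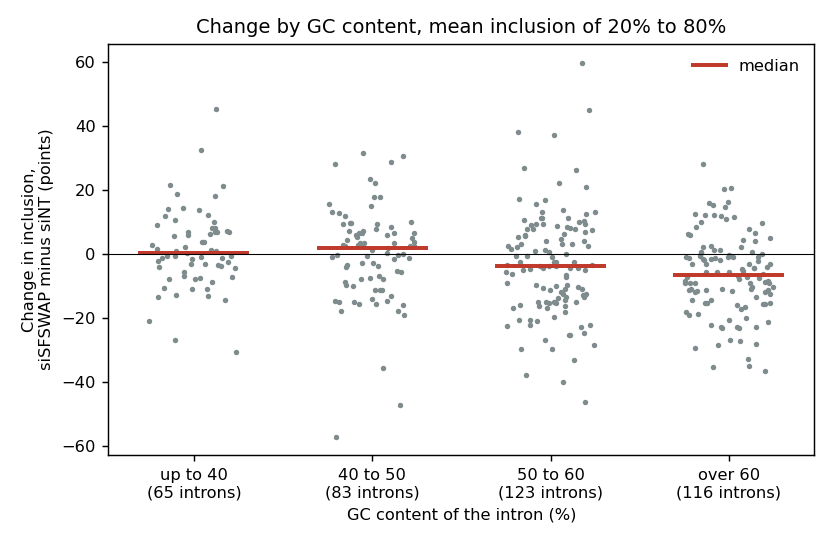
Change in inclusion (vertical, siSFSWAP minus siNT, in points) by GC content of the intron (horizontal, in percent, with the number of introns), 1 point per intron of 301 to 1000 nt with mean inclusion of 20% to 80%. Red lines are medians, at 0.386, 1.99, −3.77 and −6.60 points.

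By splice site strength the medians lay closer together. Each site was scored by how well it matches the base frequencies of annotated introns of the table. The median change was −2.45 points in introns with a 5′ site above the median score and −2.64 points in the others. For the 3′ site it was −1.92 and −2.93 points, and rho was 0.018 and 0.044 for the 5′ and 3′ scores. By position, 249 coding introns had a median change of −3.49 points, 22 introns of a 3′ UTR −2.14 points, 25 of a 5′ UTR 3.71 points and 35 of noncoding transcripts −1.04 points. Of the 1432 members in coding sequence 1390 held an in-frame stop codon, and 42 did not. Of the 17 called coding introns 16 held one.

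Small RNAs lie inside some of the members. Of the 103 members that contain an annotated snoRNA, small Cajal body RNA or miRNA, in 34 genes, 61 were tested. The SNHG1 pair and the SNHG5 intron were called lower, 4.92% of those tested, against 1.05% of the 1720 tested members without a small RNA and 1.61% over all tested introns, and 0 were called higher. These 3 calls came from 2 genes. The median inclusion was 54.9% in siSFSWAP and 49.4% in siNT, and the median change was −0.015 points. On the list of snoRNA host genes, 4 of 58 tested members were called lower, all in SNHG1, SNHG5 and GAS5, where 1.18% of all tested members were called lower, and 0 higher, with a median change of 0.268 points. In SNHG17, all 5 tested members had positive changes, between 1.26 and 11.9 points, with none past the test, and in SNHG12 the changes of 6 ran from −5.53 to 15 points.

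Introns of the minor spliceosome are known for slow removal and begin with a near-fixed sequence. The starts ATATCCTT and GTATCCTT were searched at the first intronic base on the gene's strand, and they opened 20 members (0.788%), against 0.412% of the 12867 introns at the same depth. The members of NOL11 share 1 5′ site and differ in the 3′ site, as do those of PSMA1 and of TCTN3. The counts here are thus of junctions, not of different 5′ sites. The 5′ sites of 4 members are printed as examples, with the 8 matching bases in capitals. They come from the ribosomal protein gene RPL4, the mitochondrial prohibitin gene PHB2, the glycyl-tRNA synthetase gene GARS1 and the proteasome gene PSMA1.
RPL4 307 nt: aacGTATCCTTtgtt
PHB2 427 nt: atgATATCCTTctgc
GARS1 816 nt: cccATATCCTTtctg
PSMA1 515 nt: gcaGTATCCTTttta
Of the 17 tested, 0 were called, which at 1.18% lower and 0.393% higher over all tested members says nothing about introns of this kind, 6 were lower by the mean, and the changes ran from −11.5 to 5.84 points with a median of 0.191. The RPL4 intron was at 4.93%, 4.55% and 5.65% in siSFSWAP libraries and 3.75%, 5.39% and 5.54% in siNT libraries (adjusted p 0.638). The PSMA1 515 nt intron was at 14.9%, 14.8% and 15% in siSFSWAP libraries and 14.4%, 11.5% and 13.8% in siNT libraries (adjusted p 0.717), a difference of 1.69 points. In both introns the libraries of the groups lay close together.

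Genes of the splicing machinery were counted by list, beside shares of 1.18% called lower and 0.393% called higher over all tested members, and nothing is read from counts of 0 or 1. On the list of SR and spliceosome proteins 0 of 49 tested members were called in either direction, with a median inclusion of 17% in siSFSWAP and 17.4% in siNT. Of 41 members in hnRNPs and other splicing regulators 1, in HNRNPH1, was called higher. Of 13 members in splicing and transcription kinases 1, in CDK10, was called lower, and of 17 in mRNA export, decay and exon junction genes 1, in RBM8A. SNRPB, a core snRNP protein, had the most reads on the first list, and its 327 nt intron was at 1.49%, 1.73% and 1.83% in siSFSWAP libraries and 1.83%, 1.83% and 1.74% in siNT libraries. The 530 nt intron of NONO, a paraspeckle protein, was at 5.93%, 7.17% and 6.08% in siSFSWAP and 4.87%, 5.98% and 5.08% in siNT (adjusted p 0.194).

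Genes that the study discusses had few medium introns. SF1, the branch point-binding protein, had a 432 nt intron at 86.6%, 85.2% and 86.7% in siSFSWAP libraries and 95.8%, 92.7% and 95.9% in siNT libraries, without overlap. Its change of −8.61 points passed the adjusted p (0.0147) but not the size. SRSF1, an SR protein, had a 759 nt stretch at 96.3%, 95.5% and 93.7% in siSFSWAP libraries and 98.8%, 98.6% and 98.5% in siNT libraries (adjusted p 0.0645), whose most read exon, of 187 nt, was at 96.1% in siSFSWAP and 98.7% in siNT (adjusted p 0.0663). Another exon event in it, of 204 nt with a mean of 26.8 reads, was called lower, at 32.4% in siSFSWAP and 65.3% in siNT (adjusted p 0.035). The annotated 369 nt SRSF1 intron was at 0.841%, 0.889% and 0.448% in siSFSWAP and 1.87%, 1.06% and 1.16% in siNT (adjusted p 0.263). FN1, which encodes fibronectin, had a 675 nt intron at 5.08%, 2.86% and 12% in siSFSWAP and 5.6%, 14.3% and 13% in siNT (adjusted p 0.884). The 307 nt intron of SF3B1, a U2 snRNP protein, was at 78.4%, 85.2% and 100% in siSFSWAP and 83.5%, 85.7% and 66% in siNT, and its 787 nt intron and the 878 nt stretch of SRSF1 had too few skipping reads to be tested.

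The same shares stand beside the counts of the other lists. None of 51 tested members in cytosolic ribosomal protein genes was called, nor any of 20 in mitochondrial ribosome and respiratory chain genes, 50 in translation factors and tRNA synthetases, 54 in chromatin genes, 51 in RNA polymerases, Mediator and Integrator, 16 in zinc finger transcription factors or 18 in solute carriers. Of 37 members in proteasome and ubiquitin genes 1 was called lower (PSMD11) and 1 higher (PSMC3IP, which the list took in by its symbol although it acts in recombination). Of 27 in DNA repair genes 1 was called lower (RECQL4), of 28 in cell cycle genes 1 (CDK10), and of 35 in glycosylation genes 1 (GALT). The lists' median changes lay between −2.49 points, in glycosylation and O-GlcNAc genes, and 1.03 points, in cell cycle genes, against −0.096 points over all tested members.

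A few of the most read uncalled introns of the lists show how closely the libraries could lie together. EEF1A1, a translation elongation factor, had a 366 nt intron with a mean of 38230 reads, at 0.031%, 0.051% and 0.037% in siSFSWAP libraries and 0.031%, 0.042% and 0.053% in siNT libraries. PARP1, a DNA damage sensor, had a 903 nt intron at 1.06%, 0.803% and 0.770% in siSFSWAP and 0.770%, 0.940% and 0.560% in siNT. KIF22, a chromosome-associated kinesin, had a 748 nt intron at 17.7%, 15.3% and 16.5% in siSFSWAP and 15.7%, 16.1% and 15.8% in siNT (adjusted p 0.850). UQCRQ, a subunit of respiratory complex III, had a 452 nt intron at 6.53%, 6.15% and 6.37% in siSFSWAP and 5.30%, 6.98% and 6.92% in siNT. In each of these 4 the groups overlapped.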

How the data were processed

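RNA of 3 siSFSWAP and 3 siNT cultures was sequenced from polyadenylated RNA. The authors used cutadapt 1.9.1 for trimming, STAR 2.7 with GRCh38 and GENCODE release 40 for alignment, and rMATS to count splicing events. The deposited tables hold junction counts per event as lists of 3 libraries, with effective lengths, and the authors' inclusion levels, p-values, FDR and differences, and of these only the counts and lengths were used. The columns number the groups without naming them. Which is siNT was inferred from the paper's definition of the difference, and SFSWAP reads serve as a check. The letters a, b and c follow the list order and pair nothing between groups.

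Inclusion was recomputed from the deposited counts. An intron was tested with at least 5 reads of each form over the 6 libraries and reads in at least 2 libraries per group. The test was a quasi-binomial F test, two-sided, with group as its only term and the dispersion moderated across introns with limma 3.58.1 (squeezeVar, floor 1). P-values were adjusted by Benjamini-Hochberg over all 10155 tested introns, and separately over 48100 exon events. The same thresholds (0.05 and 20 points) were used for both. Spliced reads per gene, from 1 exon event per exon, were scaled to CPM and tested with limma on log2(CPM + 0.5). A count model had been planned for these and was replaced by limma. The F test compares reads summed within each group, so deeper libraries weigh more. Its dispersion starts from the spread between the 3 cultures of each group but is moderated across introns or exon events. It cannot fall below that of read sampling, so a p-value does not rest on the spread between cultures alone. In limma on spliced reads each library has the same weight, and the spread between cultures is moderated across genes. Annotation came from GENCODE release 44 and sequences from GRCh38. The tests were also tried on counts simulated with only random spread between libraries. That trial does not cover the differences among siNT libraries given above.

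Introns were named by a rule: in each direction the 15 called members of largest change, 1 a gene, with 50 reads or more on average and no overlap between groups, called members on a gene list, the most read uncalled member of each list and members in genes the study discusses; all other called introns were added after their values were seen. The members and lists were chosen with earlier results of these data known. No marker value was obtained here for PAX2, NEFM, NEFL, PTPRC, CD3E, ALB, PECAM1, COL1A2 and HBB; VIM had 221 to 373 CPM.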

Additional observations from a re-analysis of the deposited data

How the results depend on the processing

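The counts of called introns depended on the libraries and on the test. Leaving out 1 library at a time gave between 3 and 48 introns called lower and between 1 and 17 called higher, and between 24 and 67 called exon events, of 43 in all data, among the 596 tested events that lie inside any member, whatever junction skips them (16 lower and 27 higher). The value over 43 came without siNT library a (67), and the lowest without siSFSWAP library a. limma on log2 odds, which ignores depth, called 0 introns in either direction among members, with 245 at an unadjusted p under 0.05, where the quasi-binomial test called 21 and 7, with 247 at an unadjusted p under 0.05. With the log2 odds weighted by depth, an alternative chosen after seeing the data, it called 12 lower and 5 higher, and 17 of the 28 calls were kept. The remaining alternatives (no dispersion floor, no minimum per form, a mean of at least 50 reads, 1 row per intron, raw shares of reads, a change of at least 10 points) gave 14 to 25 lower and 5 to 8 higher. The median change over members lay between −0.175 and 0.040 points when 1 library was left out, so its sign was not fixed. SFSWAP lay between −1.58 and −1.23 on the log2 scale. edgeR and DESeq2, planned as alternatives, were not run. No paired analysis was possible because the columns carry no replicate numbers, although the labels number the cultures of both groups alike. Depth limits introns near 20 reads per library, where 1 read moves inclusion by several points, and in introns at 100% no rise can be measured.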
